A study of Mus musculus with 20 samples.

Results

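The genes Immp2l, Macrod2, Wwox, Pde1c, Exoc4, Auts2 and Ccser1 are 7 very long protein-coding genes whose introns held N6-methyladenosine (m6A) peaks in the chromatin-associated RNA of mouse embryonic stem cells. They were chosen by their intron peaks in these same lists, so their peak numbers are given as a description, with no test. Their peaks were those whose summit lay inside the annotated gene on the gene's own strand. These 7 of 55450 annotated genes held 1538 of 437949 peaks over all libraries.

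The cells were C57BL/6 embryonic stem cells kept in serum medium with LIF (1000 U/ml), CHIR99021 (3 µM) and PD0325901 (1 µM). In every group, RNA of the chromatin fraction was freed of ribosomal RNA, fragmented and precipitated with an m6A antibody. The groups were a Mettl3 control, the Mettl3 knockouts KO1 and KO2, a Ythdc1 control and a Ythdc1 conditional knockout (cKO), each with 2 precipitated libraries and a peak list per library. Input RNA (10 samples) was not analysed here. It is not given in the sources used here how many clones KO1 and KO2 stand for, what drove the conditional deletion, or if paired libraries were separate cultures.

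Mettl3 is the catalytic subunit of the nuclear complex that writes m6A onto RNA as it is transcribed, mostly at adenosines in a short motif around GGAC, and Ythdc1 is the nuclear protein that reads the mark. Chromatin-associated RNA is rich in transcripts still being made or held at the gene, so it shows introns that are absent from finished messenger RNA. Very long genes are almost all intron and take hours to transcribe, and several of them, Wwox and Immp2l among them, lie at common fragile sites, where chromosomes break under replication stress.

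By role, the first group is enzymes. Immp2l (ENSMUSG00000056899.10, chr12:41024090-41955588, plus strand, 931 kb) encodes a catalytic subunit of the peptidase of the inner mitochondrial membrane. Macrod2 (ENSMUSG00000068205.14, chr2:140395309-142392966, plus strand, 1998 kb) encodes a hydrolase that removes ADP-ribose from proteins, and Wwox (ENSMUSG00000004637.15, chr8:114439655-115352708, plus strand, 913 kb) an oxidoreductase with WW domains. Pde1c (ENSMUSG00000004347.16, chr6:56069804-56569103, minus strand, 499 kb) encodes a phosphodiesterase of cyclic nucleotides that calcium and calmodulin activate.

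The other three differ in role. Exoc4 (ENSMUSG00000029763.17, chr6:33249085-33973979, plus strand, 725 kb) encodes a subunit of the exocyst, the complex that tethers secretory vesicles to the plasma membrane. Auts2 (ENSMUSG00000029673.17, chr5:131437333-132543344, minus strand, 1106 kb) encodes a nuclear regulator linked to neurodevelopment. Ccser1 (ENSMUSG00000039578.17, chr6:61180324-62382865, plus strand, 1203 kb) encodes a little-studied coiled-coil protein. Coordinates are those of GENCODE M21 on mm10, and introns made up 96.0% (Pde1c) to 99.8% (Immp2l) of these genes.

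Most summits lay in introns, whose sequence was not used here, so the sequences shown are windows of up to 121 bases around summits that fall in an exon, read from GENCODE M21 transcripts of the gene. The Ccser1 and Pde1c windows lie in regions taken up again below, and the others are examples. The first 3 lie in coding exons with a peak in all 10 libraries. The Wwox window lies in an exon of a transcript without a coding sequence there, inside intron 5 of the main coding transcript, and had a peak in 9 libraries. Ccser1 gives a coding exon with a peak in 7 libraries, none of them KO1, and one with a peak only in the Mettl3 controls and the cKO. The Pde1c window lies in a coding exon with a peak only in the cKO. Capitals mark GGAC on the gene's strand.
Exoc4, chr6:33265940-33266040, plus strand: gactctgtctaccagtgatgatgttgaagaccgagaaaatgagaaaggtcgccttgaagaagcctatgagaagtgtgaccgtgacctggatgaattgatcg
Exoc4, chr6:33972008-33972128, plus strand: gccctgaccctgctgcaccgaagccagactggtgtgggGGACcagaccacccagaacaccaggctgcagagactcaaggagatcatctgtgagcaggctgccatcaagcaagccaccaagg
Auts2, chr5:131439858-131439978, minus strand: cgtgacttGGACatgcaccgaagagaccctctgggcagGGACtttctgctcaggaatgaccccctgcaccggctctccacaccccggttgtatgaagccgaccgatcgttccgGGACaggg
Wwox, chr8:114514016-114514136, plus strand: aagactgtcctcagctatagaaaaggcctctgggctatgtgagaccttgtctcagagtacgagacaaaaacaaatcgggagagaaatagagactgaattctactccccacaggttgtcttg
Ccser1, chr6:61311035-61311155, plus strand: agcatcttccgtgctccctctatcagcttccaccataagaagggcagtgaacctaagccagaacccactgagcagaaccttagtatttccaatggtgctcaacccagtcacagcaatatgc
Ccser1, chr6:61313654-61313726, plus strand: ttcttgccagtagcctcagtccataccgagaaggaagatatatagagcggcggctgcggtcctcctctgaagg
Pde1c, chr6:56126932-56127052, minus strand: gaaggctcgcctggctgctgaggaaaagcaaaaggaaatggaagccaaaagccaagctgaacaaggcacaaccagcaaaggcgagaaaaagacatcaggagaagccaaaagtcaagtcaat
GGAC stood in 7 of 11 windows of full length (121 bases) around such summits, or 63.6%. All 7 lie in Exoc4 or Auts2, and the full-length windows of Wwox, Ccser1 and Pde1c have none. Over windows of any length, from 61 bases up, it stood in 10 of 23, or 43.5%. It stood in 37.1% of 38018 windows of that length laid end to end along every 50th GENCODE transcript. In the windows printed here it is absent from the first Exoc4 exon, from Wwox, from both Ccser1 exons and from Pde1c, which says only that these letters are not in these windows.

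The lists held 40959 to 46735 peaks per library. KO1 stood apart from the other groups. It had the shortest lists (40959 and 41004 peaks) and the largest share of summits in introns of protein-coding genes (45.3% and 45.1%, against 26.9% to 34.5% in the other 8 libraries). Its part in the KO1 values below was not tested. Peaks lay in 9 to 12 of 12 embryonic stem cell markers per library and in 1 or 2 of 6 neuron markers. Of 10 fibroblast markers, 6 had a peak in each Mettl3 control, 2 in each KO1, KO2 and Ythdc1 control library and 3 in each cKO library. Their summed peaks were 8 and 11 in the Mettl3 controls against 3 to 6 in the 4 knockout libraries, and 10 and 10 in the Ythdc1 controls against 8 and 7 with that deletion. A peak list does not measure expression, so Mettl3 itself, with 1 peak in each Mettl3 control, none in KO1 and 1 in each KO2 library, checks no label. The Ythdc1 gene had 7 and 7 peaks in its control and 7 and 6 in the cKO.

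Peaks of the 7 genes were intron peaks in the main. Of 1538 summits, 1337 (86.9%) lay in no exon of the gene, 105 in a coding exon and 46 in a UTR. The other 50 lay in an exon of a non-coding transcript of the gene or of one outside GENCODE's basic set. The intron share was highest in Immp2l (242 of 243 peaks) and Pde1c (53 of 55) and lowest in Ccser1 (21 of 37). Antisense peaks were few: 31 in Macrod2 and 26 in Ccser1 over all 10 libraries, and 0 to 10 in each of the others. No member's peak lay inside another gene annotated on the same strand.

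Merging overlapping peaks of all 10 libraries gave 332 regions, 299 of them in introns, with a median width of 249 bp. Between neighbouring regions of a gene the median distance was 6.48 kb, and 197 of 325 distances were under 10 kb. In all 10 libraries 47 regions had a peak (20 in Exoc4, 11 in Auts2, 9 in Wwox, 6 in Immp2l and 1 in Macrod2), 39 of them with the strongest summit in an intron. Ccser1 and Pde1c had no such region.

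**Figure D1:**
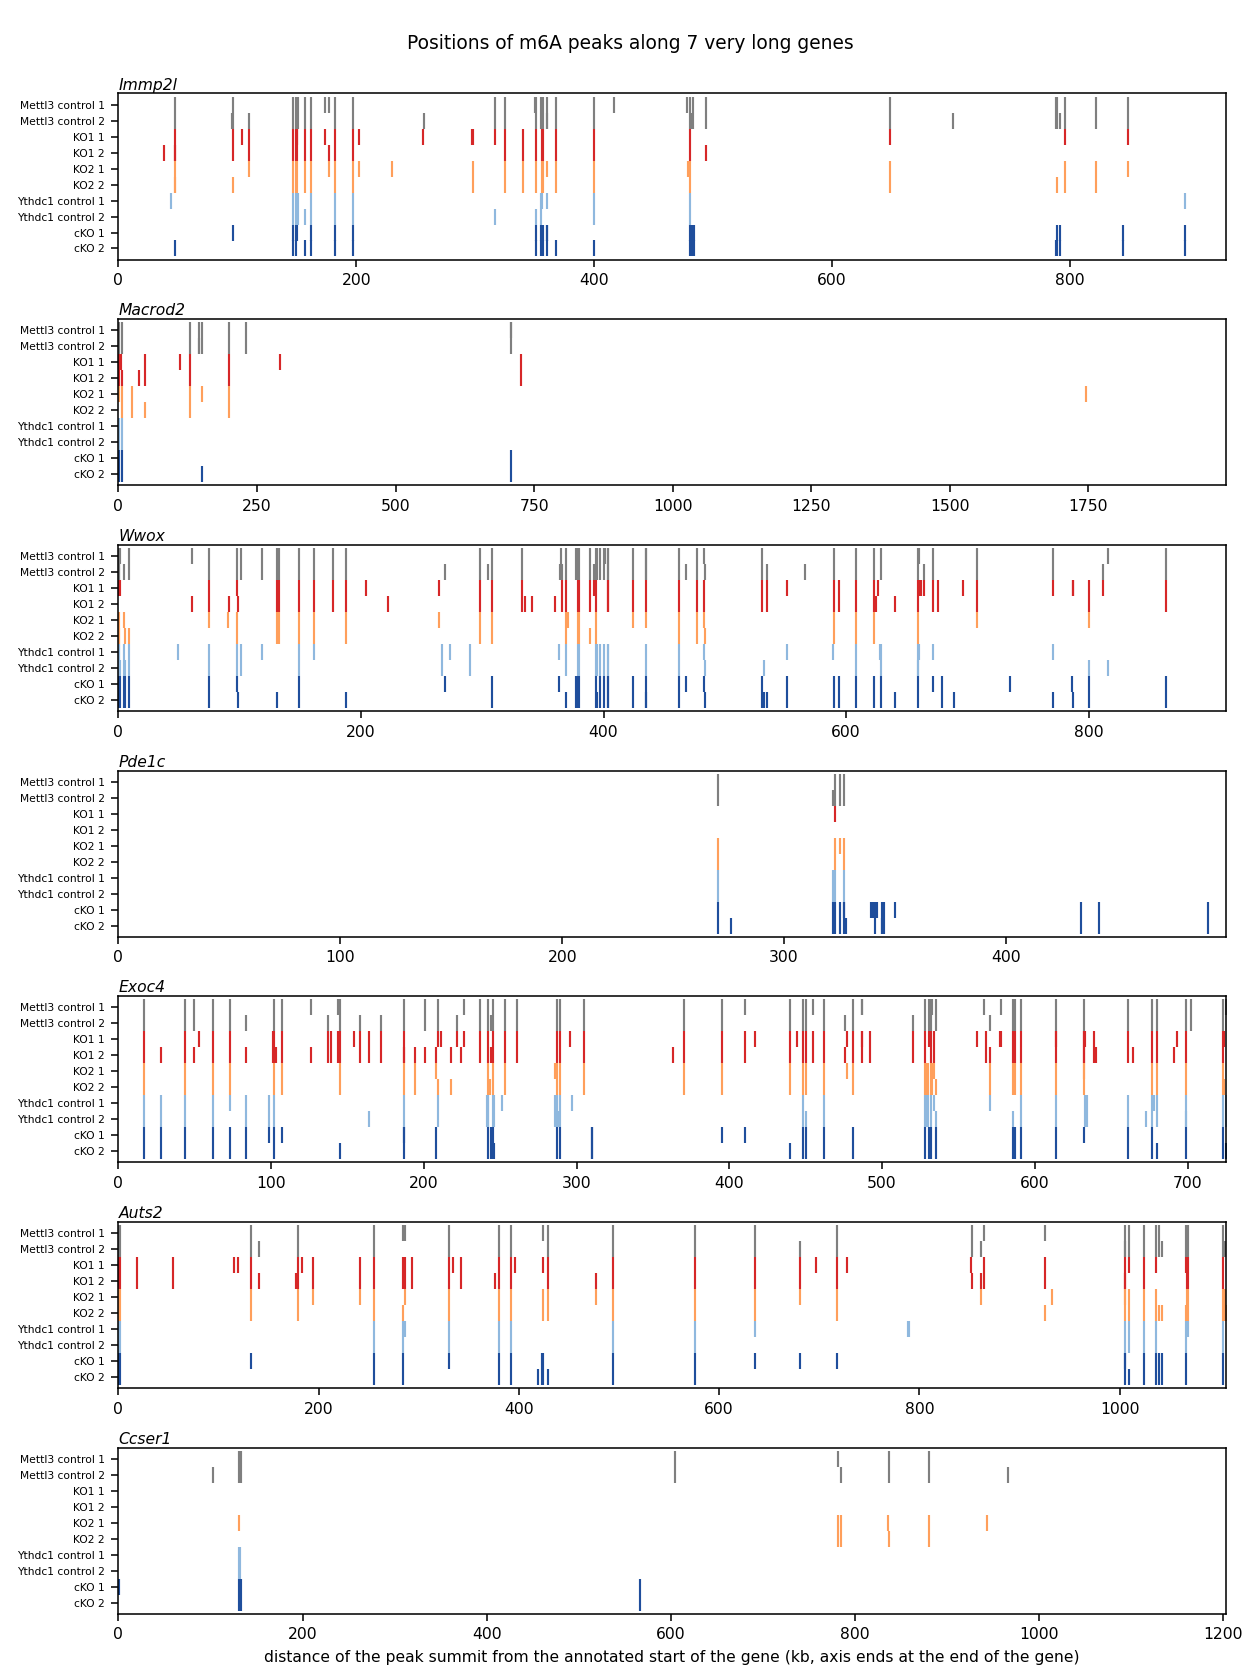
Each tick is the summit of one peak, placed by its distance in kb from the annotated start of the gene, with one row for each of the 10 libraries coloured by group. Exoc4, Wwox and Auts2 carry peaks along their whole length, Macrod2 has 48 of 56 peaks in the first of 5 equal parts, and Pde1c has none in its first 270 kb.

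Each gene had its own layout. In Macrod2, 48 of 56 peaks lay in the first of 5 equal parts of the gene and a stretch of 1020 kb had no peak in any library. Pde1c was the reverse. Its first peak lay 270 kb from the annotated start, and 40 of its 55 peaks fell in the fourth of these parts. In Immp2l, 90 peaks fell in the first part and 84 in the second, most of them in the 518 kb intron 4, and 6 in the fourth. Ccser1 had 17 peaks in the first part, mostly around its large coding exon, none in the second, and 15 in the fourth, in introns. Exoc4 had no gap above 53.2 kb and Wwox none above 48.8 kb. Per library, 20% to 28.7% of the members' peaks lay in the first part of the gene (mean 25.2%, SD 2.63, n = 10), beside 18.8% to 22.9% over the other protein-coding genes of at least 500 kb (mean 21.5%, SD 1.52).

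Peak numbers differed widely among the 7. Exoc4 had 48.1 peaks per library on average, the 7th highest of all genes, followed by Wwox with 39.9, Auts2 with 26.7 and Immp2l with 24.3. Macrod2 (5.60), Pde1c (5.5) and Ccser1 (3.70) had far fewer. Per length the order was Exoc4 (6.64 peaks per 100 kb), Wwox (4.37), Immp2l (2.61), Auts2 (2.41), Pde1c (1.1), Ccser1 (0.308) and Macrod2 (0.280). The 224 other protein-coding genes of at least 500 kb had a median of 0.140 peaks per 100 kb, and 32 of them had no peak.

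**Figure D2:**
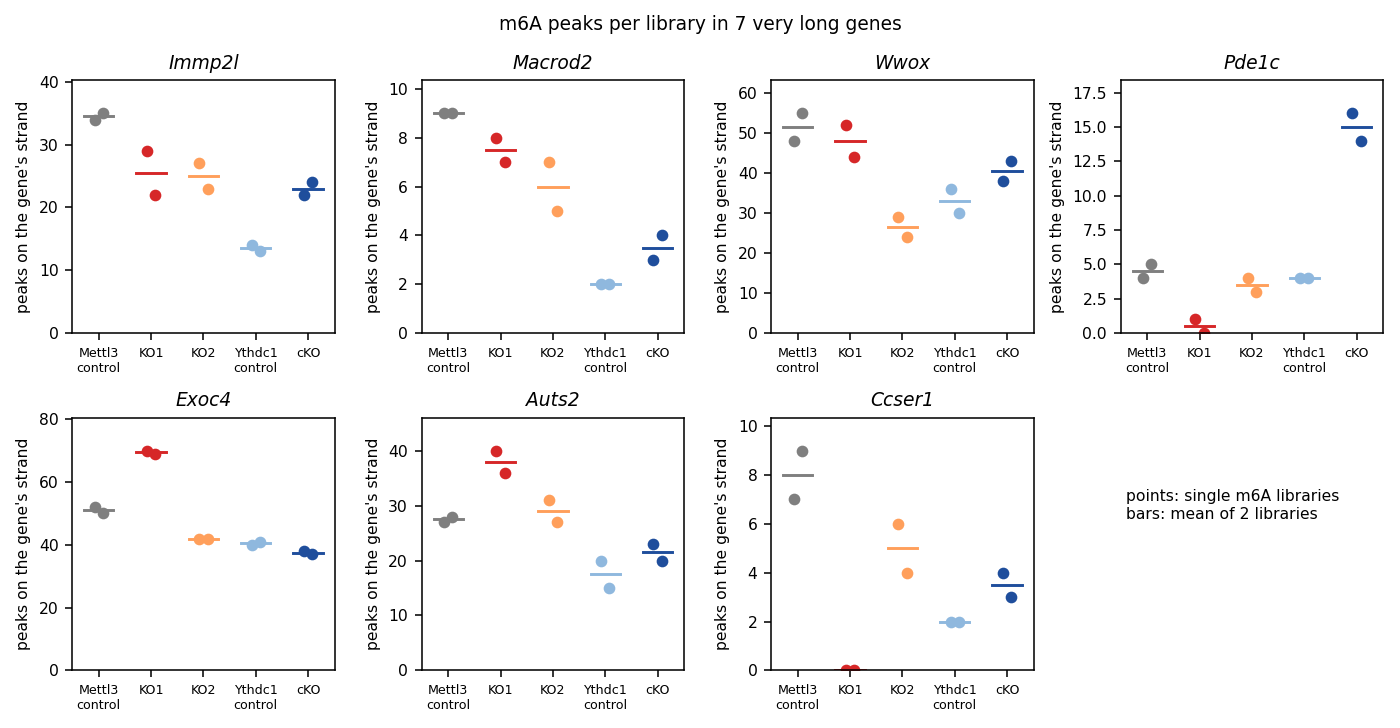
Points give the number of same-strand peaks of each gene in each of the 2 libraries of a group, and bars give the group mean, on axes that start at 0. Pde1c stands at 14 and 16 peaks in the cKO and at 0 to 5 elsewhere, Exoc4 at 69 and 70 in KO1, and Ccser1 at 0 in both KO1 libraries.

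The 2 sets of controls were not alike in these genes. Both Mettl3 controls held more peaks than both Ythdc1 controls in Immp2l (34 and 35 against 14 and 13), Macrod2 (9 and 9 against 2 and 2), Ccser1 (7 and 9 against 2 and 2), Wwox (48 and 55 against 36 and 30), Exoc4 (52 and 50 against 40 and 41) and Auts2 (27 and 28 against 20 and 15). Pde1c had 4 and 5 against 4 and 4. Of 150 regions that the Mettl3 controls shared, 62 were without a peak in the Ythdc1 controls, while 5 of 83 shared by the Ythdc1 controls were without one in the Mettl3 controls. The number of fibroblast markers with a peak differed between the 2 sets of controls in the same direction (6 and 6 against 2 and 2). Their summed peaks did not (8 and 11 against 10 and 10), and Fn1 went the other way (3 and 4 against 9 and 8). The part of these markers in the members' values was not tested. Each knockout is therefore set only against its own control.

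For Mettl3, the question was whether loss of the writer removes peaks from these genes, with exon peaks counted too. Immp2l, Macrod2 and Ccser1 had fewer peaks in all 4 knockout libraries than in both controls, which is 3 of 7 members and none above. Of the 3830 genes with at least 3 peaks on average, 9.19% were below and 7.81% above. For Ccser1 in KO2 this rests on coding-exon peaks, since its intron peaks alone overlapped the controls there. Taken line by line, 4 members were below and 2 above in KO1 (16.6% and 24.5% of genes), and 5 were below and none above in KO2 (22.1% and 17.5%). Among 79 other genes of at least 500 kb that met the same minimum, 25 were below in all 4 libraries and 2 above. The median ratio of mean peak numbers, knockouts to control, was 0.732 over the members, 0.875 over those 79 genes and 1.02 over the 3828 genes with a peak in a control. Without replicate 1 of the Mettl3 control, 5 members were below in all 4 libraries. Scaled by the peaks of each library 2 members were below and 1, Auts2, above, and scaled by intron peaks 5 were below and Auts2 above. Of the 10 fibroblast markers, 4 (Col1a1, Col1a2, Col5a2 and Lox) were below in all 4 knockout libraries, with 1 or 2 peaks in each control and 0 in the knockouts. These 4 average 0.2 to 0.4 peaks per library, under the minimum of 3. No share over all genes with so few peaks is given here. The 1 marker that met the minimum, Fn1, was not below. The part of these markers in the members' counts was not tested. With 2 control and 4 knockout libraries, the smallest p an exact two-sided permutation test allows is 0.0667, and with 2 against 2 it is 0.333, so no difference could be called by such a test.

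**Figure D3:**
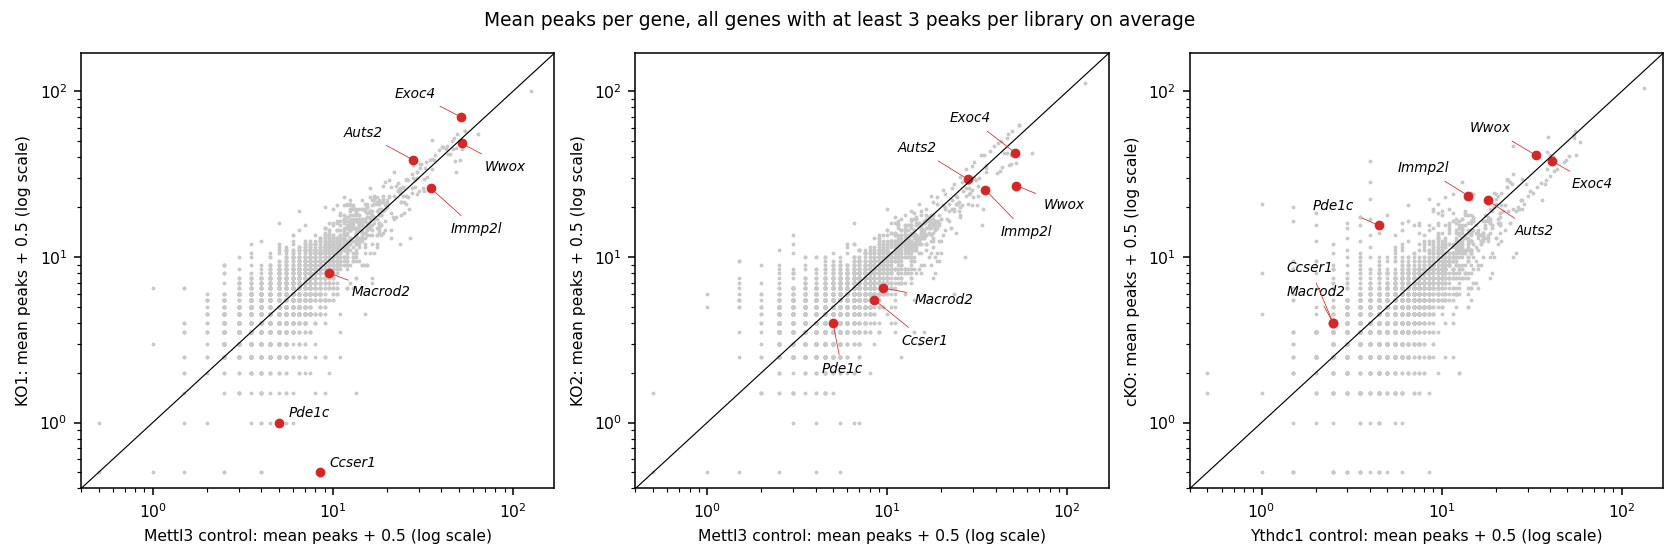
Each grey point is one of the 3830 genes with at least 3 peaks on average, at its mean number of peaks in the control (x) and in KO1, KO2 or the cKO (y), both with 0.5 added and on log scales, and the line marks equality. Members are red: Ccser1 stands at 0 in KO1, Exoc4 lies above the line in KO1 and below it in KO2, and Pde1c lies above it in the cKO.

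Among the enzymes, Immp2l had 34 and 35 peaks in its controls, 29 and 22 in KO1, and 27 and 23 in KO2. Both lines were lower than the controls without overlap, by 9.0 peaks in KO1 (mean 25.5, SD 4.95, n = 2) and 9.50 in KO2 (25.0, SD 2.83). The KO1 difference was -5.50 without KO1 replicate 2, -12.5 without KO1 replicate 1 and -5.58 when scaled by library peaks. Macrod2 had 9 and 9 peaks in the controls, 8 and 7 in KO1 and 7 and 5 in KO2, again without overlap. Scaled by the peaks of each library, the KO1 values of Macrod2 overlapped its controls. Wwox had 48 and 55 peaks in the controls and 52 and 44 in KO1, which overlap, but 29 and 24 in KO2, below both controls. Its KO1 mean was 3.50 peaks lower than the control as counted, 2.32 higher when scaled by library peaks and 11.3 lower when scaled by intron peaks, so no direction is given. Pde1c, with 4 and 5 peaks in the controls, had 1 and 0 in KO1 and 4 and 3 in KO2.

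Exoc4 differed from its controls in opposite directions in the 2 lines. Its controls had 52 and 50 peaks, KO1 had 70 and 69, and KO2 had 42 and 42. The direction in each line was the same under the alternatives run, with sizes that depended on scaling. The KO1 excess of 18.5 peaks was 27.5 with equally long lists and 6.21 when scaled by intron peaks, and the KO2 difference of -9.0 was -2.50 with equally long lists. Of 8 other exocyst subunit genes, 1 was above its controls in KO1 (Exoc2, 4 and 4 against 3 and 3 peaks) and 2 were below in KO2. Only 3 of the 8 had at least 3 peaks on average. Of all genes with that minimum, 24.5% were above in KO1 and 22.1% below in KO2. Auts2 had 27 and 28 peaks in the controls and 40 and 36 in KO1, higher without overlap, and 31 and 27 in KO2, which overlap as counted but lie above both controls when scaled by library peaks or by intron peaks. Scaled by intron peaks, the Auts2 excess in KO1 was 3.78 peaks in place of 10.5.

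Ccser1 had no peak in KO1. It had 7 and 9 peaks in the controls, 0 and 0 in KO1 and 6 and 4 in KO2. At the region over its large coding exon (chr6:61310760-61312150) fold enrichment, the authors' ratio of pile-up to background at the summit, was 8.24 and 12.5 in the controls and 2.98 in 1 of the 4 knockout libraries. Intron regions in the fourth of 5 equal parts of the gene, 837 kb and 881 kb from its start, kept a peak in both KO2 libraries (5.43 and 9.05 at the first, 8.30 and 6.97 at the second, beside 7.19 and 4.91, and 4.54 and 4.70, in the controls). A peak list cannot tell less m6A per transcript from less RNA of the gene or from fewer cells that make it, so a missing peak shows only that none was called.

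Region by region, most of what the Mettl3 controls shared was still called in the knockouts. A peak marks enrichment with the m6A antibody, so one called in a Mettl3 knockout library is not shown to be m6A. How far Mettl3 was lost in these lines was not measured here. Of 151 member regions in both controls, 87 (57.6%) were called in each of the 4 knockout libraries and 19 (12.6%) in none, beside 63.2% and 9.33% of all intron regions of protein-coding genes. Only 1 of 89 regions found in all 4 knockout libraries was gained (6.77% over intron regions). By line, KO1 lacked 31 of the 151 regions, or 20.5%, beside 15.1% of intron regions and 24.3% of all regions of the lists. KO2 lacked 37, or 24.5%, beside 16.8% and 18.4%. The member regions counted here are of every class. Over all regions of the lists, in any gene or none, 13.1% were lost, 57.7% kept and 4.38% gained in the 4 libraries together, so the members' lost and kept shares lie near those. Without replicate 1 of the Mettl3 control 34 regions counted as lost. Gained regions numbered 4 without KO2 replicate 2, and 2 without KO2 replicate 1, without either KO1 library or without control replicate 1.

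The members differed in this. Exoc4 kept 33 of 40 regions in all 4 libraries and lost 1, and Auts2 kept 18 of 22 and lost 0. Wwox kept 19 of 44 and lost 8, Immp2l kept 14 of 27 and lost 4, and Macrod2 kept 3 of 8 and lost 3. Ccser1 kept none of 6 and lost 3, and Pde1c kept none of 4 and lost none over both lines, since 3 of the 4 were missing from KO1 but 3 were kept in KO2. The strongest lost region lay in intron 4 of Immp2l, 355 kb from the start (chr12:41379085-41379893). Its fold was 9.89 and 10.1 in the Mettl3 controls, at percentiles 90.3 and 92.4 of their lists, and no knockout library had a peak there, while neighbours 351 kb and 356 kb from the start kept theirs in all 4. The same region had a peak in all 4 libraries of the Ythdc1 comparison (4.10 and 5.09 in the controls, 4.99 and 4.69 in the cKO). The one gained region also lay in that intron, 340 kb from the start, at 4.45, 4.34, 5.43 and 4.96.

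**Figure D4:**
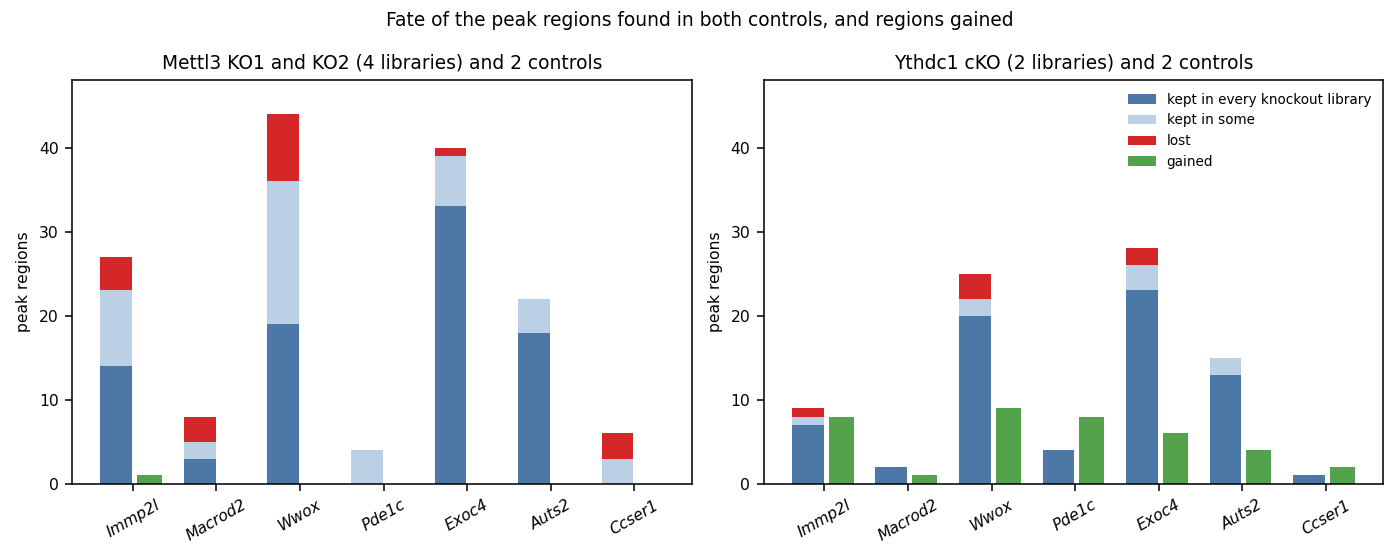
For each gene the stacked bar counts the regions found in both controls, split into those kept in every knockout library, kept in some and lost, and the green bar counts the regions gained, on an axis from 0. In the Mettl3 panel Exoc4 kept 33 of 40 regions and Auts2 18 of 22, while in the Ythdc1 panel every gene kept most of its regions. Gains number 1 in the Mettl3 panel and 38 in the Ythdc1 panel.

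For Ythdc1, the question was whether loss of the reader changes the same peaks. Both cKO libraries were above both controls in Immp2l, Macrod2, Wwox, Ccser1 and Pde1c, and below in Exoc4. That is 5 of 7 above and 1 below, beside 12.3% and 35.0% of the 3830 genes. Among the 79 other long genes, 44 were above and 15 below. The median ratio of mean peak numbers, cKO to control, was 1.70 over the members, 1.38 over those 79 genes and 0.875 over all genes. Among genes that met the minimum, counts above both controls were thus more frequent in other long genes too. Over all 3830, counts below both were. The minimum of 3 peaks is an average over all 10 libraries, so a gene can meet it through high cKO counts alone. The part of this filter in the 44 and 15 was not tested.

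Pde1c had the largest ratio of cKO to control among the 7, at 3.75. Its controls had 4 and 4 peaks, and the cKO libraries had 16 and 14 (mean 15.0, SD 1.41, n = 2). The groups were far apart under the alternatives run, where the difference ran from 10 to 13.2 peaks. Immp2l had 14 and 13 in the controls against 22 and 24, and Wwox 36 and 30 against 38 and 43. The Wwox difference was 7.50 peaks, and 4.5 without replicate 2 of the control or with equally long lists. Macrod2 had 2 and 2 against 3 and 4, and Ccser1 2 and 2 against 4 and 3, gaps of 1 or 2 peaks. Auts2 had 20 and 15 in the controls and 23 and 20 in the cKO, which touch. Exoc4 had 40 and 41 in the controls and 38 and 37 in the cKO, and its values overlapped once scaled by intron peaks, a scaling that put Auts2 above both controls. The Exoc4 difference of -3.00 peaks was -7.00 with equally long lists and -5.40 when scaled by library peaks.

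Region by region, the cKO had more gained than lost regions in these genes, as it had over all regions of the lists (10731 gained and 6119 lost). Of 84 member regions in both Ythdc1 controls, 70 (83.3%) were kept and 6 (7.14%) were lost, beside 65.0% and 22.5% of intron regions of protein-coding genes. Of 119 regions in both cKO libraries, 38 (31.9%) were gained, beside 26.7%. Over all regions of the lists, 72.2% were kept, 17.9% lost and 28% gained, so the members' gained share lies near those of the background. Wwox gained 9, Immp2l and Pde1c 8 each, Exoc4 6, Auts2 4, Ccser1 2 and Macrod2 1. The lost count was the less steady one, at 11 without replicate 1 and 19 without replicate 2 of the control, 12 without replicate 2 of the cKO and 10 with equally long lists. Of the 37 gained regions in the merge over all 10 libraries, 5 were among those kept and 4 among those lost in the Mettl3 comparison. The other 28 were neither, and no share over all regions is given here for this overlap.

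Pde1c had its strongest peak in a gained region, in intron 18 near the end of the gene (chr6:56077568-56077896, 491 kb from the start), at 13.0 and 14.1 in the cKO and with no peak in the other 8 libraries. These folds are at percentiles 96.6 and 97.7 of the cKO lists. Of the other 7 gained regions of Pde1c, 5 lay in the 260 kb intron 3, between 325 kb and 345 kb from the start, 1 in intron 15 at 434 kb and 1 in the coding exon printed above at 442 kb. The widest was 3159 bp across, in intron 3 (chr6:56227488-56230646, 9.05 and 9.38). The regions it shared with the controls also ranked higher in the cKO. At chr6:56298918-56299839, 270 kb from the start, fold was 5.71 and 6.04 in the Ythdc1 controls against 11.0 and 9.80 with the deletion, beside 7.73 and 7.25 in the Mettl3 controls, no peak in KO1, and 3.20 and 2.78 in KO2. All 4 kept regions of Pde1c had a higher percentile in both cKO lists than in both controls.

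**Figure D5:**
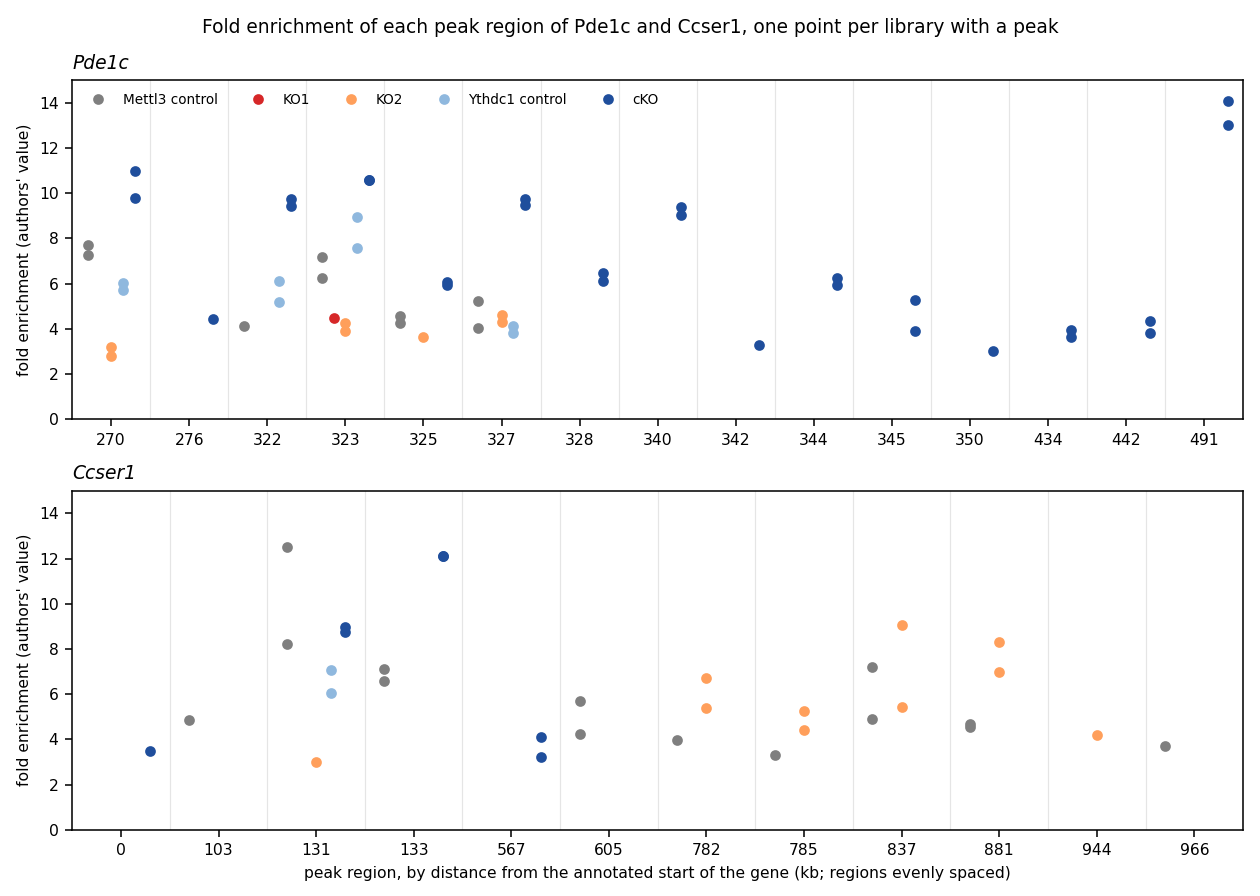
Each column is one peak region of Pde1c (top) or Ccser1 (bottom), ordered by distance from the gene's start in kb, and each point is the authors' fold enrichment in one library with a peak there. The cKO points of Pde1c lie at or above every control point in the same column, and Ccser1 shows no KO1 point.

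Ccser1 showed a like contrast at one coding exon, the second of the 2 printed above (chr6:61313531-61313805). Its fold was 7.13 and 6.58 in the Mettl3 controls, with no peak in any Mettl3 knockout library or in either Ythdc1 control, and 12.1 and 12.1 in the cKO. Macrod2 had 1 region of the same kind, 708 kb from the start in intron 5 (chr2:141103282-141103874), at 5.29 and 4.80 in the Mettl3 controls, none in the knockouts or the Ythdc1 controls, but 5.90 and 7.55 once Ythdc1 was deleted.

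Kept regions could still change rank within their lists. A fold carries no common scale between libraries, so each was read as a percentile of all folds in its own list. In the Mettl3 comparison 14 of 87 kept member regions (16.1%) had a lower percentile in all 4 knockout libraries than in both controls and 17 (19.5%) a higher one, beside 11.0% and 19.8% of kept intron regions. In the cKO, 26 of 70 (37.1%) were lower and 10 (14.3%) higher, beside 35.2% and 22.0%.

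Single regions differed in direction. In Exoc4 the strongest region, 289 kb from the start in intron 9 (chr6:33537506-33538081), stood at 16.1 and 16.3 for the Mettl3 controls, 7.85, 7.55, 8.70 and 8.48 in the knockouts, 15.0 and 18.0 in the Ythdc1 controls against 7.59 and 7.44 with that deletion. Its percentile was 98.9 and 99.4 in the Mettl3 controls and 85.0 to 87.8 in the 4 knockout libraries. In the Ythdc1 controls it was 98.7 and 99.4, against 80.9 and 79.5 in the cKO. The region was named for the highest Exoc4 fold, found in a Ythdc1 control, so that choice favours lower values elsewhere. No share of regions lower in both comparisons is given here. Wwox had a region of the same pattern 98.1 kb from the start in intron 5 (chr8:114537392-114538484), with 14.8 and 14.1 against 5.10, 5.42, 6.29 and 9.42, and 11.2 and 12.7 against 6.22 and 6.71.

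Other regions went the other way or held. In intron 8 of Wwox, 483 kb from the start (chr8:114922668-114923536), fold was 9.69 and 9.95 in the Mettl3 controls and 12.7, 15.8, 15.2 and 14.3 in the knockouts, but 7.99 and 9.11 in the Ythdc1 controls against 3.73 and 4.97 with that deletion. The highest fold of any member was at an Auts2 intron 380 kb from the start (chr5:132163355-132163842), with 21.6 and 16.4 for the Mettl3 controls, then 17.7 and 18.1 (KO1) and 25.5 and 21.7 (KO2). It was lower in the Ythdc1 comparison, at 14.4 and 8.04 without the deletion and 9.68 and 9.08 with it. In all 6 libraries of the Mettl3 comparison it ranked at or above the 99.4 percentile. Immp2l had its strongest region 149 kb from the start in intron 4 (chr12:41172502-41173904), at 8.23 to 15.6 in all 10 libraries. In Macrod2 the one region found in every library, in intron 1 (chr2:140400725-140400946), stood at 4.62 and 5.91 in the Mettl3 controls and at 7.48 to 9.26 in the 4 knockout libraries, with 6.23 and 6.47 in the Ythdc1 controls against 4.71 and 5.48 with that deletion.

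The depth behind these folds can be read from the lists in part. Solving each deposited fold and p-value for the Poisson pile-up and local background they imply matched 98.6% of member peaks within 0.002, and gave a median pile-up of 95.0 to 130 reads at member summits per library. The local background was compared with its most common value in the same list and strand. At the 20 Exoc4 regions found in every library it was 1.47 to 3.41 times that value, lowest in KO2 (1.80 and 1.47) and highest in the cKO (3.38 and 3.41). At the strongest Exoc4 region, 289 kb from the start, it was 1.1 and 1.0 in the Ythdc1 controls against 2.12 and 1.87 with that deletion, while in the Mettl3 comparison it was 1.00 in both controls and 1.00 to 1.34 in the knockouts. At the 9 Wwox regions found in every library it was 1.31 and 1.62 in the Ythdc1 controls against 2.40 and 2.17 with that deletion, where the folds of the Wwox regions at 98.1 kb and 483 kb were lower. At the Macrod2 region in intron 1 it was 1.89 and 1.64 in the Mettl3 controls and 1.00, 1.00, 1.43 and 1.26 in the knockouts, where fold was higher. Its part in these counts and folds was not tested. The median background over all peaks of Pde1c, and over all of Macrod2, was 1.00 times the common value in each library where they had a peak. The sources used here do not say if the inputs supplied this background.

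By the pattern of counts over the 10 libraries, the gene most like each member, overlapping genes left out, was Gphn for Immp2l (Pearson's r 0.979), Plag1 for Macrod2 (0.966), Chkb for Wwox (0.925), Wls for Pde1c (0.986), Kpna3 for Exoc4 (0.987), Kank1 for Auts2 (0.977) and Klf7 for Ccser1 (0.918). Each is the highest of 3830 genes and is a description only, since the libraries share their group and depth. Gphn, itself 458 kb long, had 30 and 33 peaks in the Mettl3 controls, 22 to 26 in the knockouts, 13 and 15 in the Ythdc1 controls against 22 and 22 with that deletion. Among the members, Immp2l and Macrod2 were most alike (r 0.913), then Exoc4 and Auts2 (0.844), and Exoc4 and Pde1c were most opposed (-0.645).

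Other long genes give the scale. Of a list of 28 further very long genes, several of them at fragile sites, 27 had a peak. Of the 15 with at least 3 peaks on average, 6 were below both controls in all 4 Mettl3 knockout libraries and none above. In both cKO libraries 9 were above both controls and 2 below. Some of the 15 meet that minimum through their cKO counts, such as Dlg2, with 8 and 8 peaks there and 1 to 3 in each other library. Of all 28, with no minimum, 19 were above both controls in the cKO and 2 below. All of the 15 but Fto (355 kb) and Tcf4 (346 kb) are among the 79 other long genes counted above, so this is no separate comparison. Fhit, a hydrolase gene at a fragile site, had 4 and 3 peaks in the Ythdc1 controls against 35 and 40 in both cKO libraries, a wider gap than that of Pde1c, and Magi2 had 2 and 3 against 14 and 17. Of the non-member genes of at least 500 kb, the 5 with most peaks were Gm20388, Gm42416, Gm37013, Gm37388 and Hs6st3. The middle 3 are overlapping gene models that share peaks, and Hs6st3, a heparan sulfate sulfotransferase gene, had 50.3 peaks on average, beside 48.1 in Exoc4.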

How the data were processed

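Chromatin-associated RNA of mouse embryonic stem cells was precipitated with an m6A antibody in 10 libraries. CASAVA, Trimmomatic 0.38, HISAT2 2.1.0, MACS2 and mm10 are named in the submitters' processing notes, while the MACS2 version, its options and the reads per library are not given in the sources used here. Each deposited list, which by its peak names was called per strand, gives for each peak a display score, the authors' fold enrichment (a ratio over background), the authors' −log10 of p and q, and the summit, and all peaks have a −log10 q of at least 2.00 and a width of at least 150 bp.

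Peaks on the main chromosomes were assigned to a gene of GENCODE M21 by summit and strand. Intron numbers follow the coding transcript of the basic set that spans most of the gene, or for Auts2 the longest transcript, which is non-coding. Regions are chains of peaks sharing at least 1 bp, merged over the libraries compared. A region was lost with a peak in both controls and no knockout library, kept with one in every library, and gained with one in every knockout library and no control. A gene was below (above) when every knockout library had fewer (more) peaks than both controls. The members and lists were chosen with earlier results of these data known. Named regions are the 2 with highest fold among those in every library, the strongest lost and gained, the strongest of each gene, and a few chosen after their values were seen. Python 3.11.15, numpy 2.4.6, pandas 2.3.3, scipy 1.17.1 and matplotlib 3.10.9 were used, and the counting was tested on simulated data.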

Additional observations from a re-analysis of the deposited data

Results flagged for a closer look

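The number of Exoc4 peaks differed from the Mettl3 control in opposite directions in the 2 knockout lines: 18.5 peaks more in KO1 and -9.0 in KO2, as KO minus control means. Both libraries of KO1 lay above both controls and both libraries of KO2 lay below. The KO1 excess was 6.21 when scaled by intron peaks, and the KO2 difference was -2.50 with equally long lists. Of all genes with at least 3 peaks on average, 24.5% were above in KO1 and 22.1% below in KO2. The difference between the lines was not tested. KO1 also had the largest share of intron peaks of all groups, and its part in this was not tested.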

How the results depend on the processing

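No paired analysis was run, as no test was made and the labels give only replicate numbers, not pairs. The planned share of intron summits with GGAC was not run, since no genome sequence was used here. Of 76 recomputed summary values, 63 stayed within 1.5 times or the spread between libraries. Members below their controls in all 4 Mettl3 knockout libraries numbered 3, and 5 when counts were divided by intron peaks, and 3 to 5 when 1 library was left out. Lost regions in the Mettl3 knockouts numbered 19, and 22 to 34 with a library left out. Gained regions there numbered 1, and 2 with an equal number of peaks per library and 1 to 4 with a library left out. Lost regions in the cKO numbered 6, and 10 with an equal number of peaks per library and 8 to 19 with a library left out. Fewer libraries make each of these criteria easier to meet. For the other changes the cause was not tested. Of 189 recomputed differences of single members, 47 moved by more than the spread between libraries, and none of those whose groups did not overlap changed sign. A missing peak may lie under the depth of its library, and total reads are unknown.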
